A study of Mus musculus with 2 samples.

Results

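The constitutive proteasome genes were read across marker-gated cells of 2 single-cell libraries of fibrotic mouse liver. They are the genes whose symbols run from Psma to Psmg followed by a number, without the inducible catalytic genes Psmb8, Psmb9 and Psmb10, and with at least 100 unique molecular identifiers (UMIs) over both libraries. Of 55357 genes listed, 45 matched the symbols and 43 had the required UMIs; Psma8 with 17 UMIs and Psmb11 with 2 UMIs did not. UMIs ran from 1027 for Psmg1 to 31874 for Psme1 over both libraries, so every gene was measured in the pooled data but the precision in small gates differed between genes. Psme2b, a separate gene with a name close to Psme2, held 3350 UMIs, and reads of the pair could have been split between them, so Psme2 is uncertain. The 5 pseudogene entries with proteasome names held 0 to 3 UMIs each.

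The study treated mice with carbon tetrachloride (CCl4), a hepatotoxin that scars the liver, and gave IPA, indole propionic acid, a tryptophan metabolite of gut bacteria, to one group. One library, CCl4, came from livers with CCl4 alone, and the other, CCl4+IPA, from livers with CCl4 and IPA. Strain, genotype, sex, age, doses, times and the number of animals behind a library are not given in the sources used here, and no untreated liver is among the samples. Both groups carry the CCl4 injury, and cells came from enzymatically dissociated tissue after lysis of red cells and removal of dead cells. With 1 library per group there was no replicate error and no test was run, so intervals throughout are exact 95% intervals that cover counting error only.

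The proteasome degrades proteins tagged with ubiquitin. Its 20S core is a barrel of outer alpha rings, which gate the entrance, and inner beta rings, which hold the protease sites: Psmb5 chymotrypsin-like, Psmb6 caspase-like and Psmb7 trypsin-like. The 19S cap has a base, with the Psmc ATPases that unfold substrates and the scaffold or receptor subunits Psmd1, Psmd2 and Psmd4, and a lid, which holds the deubiquitinase Psmd14. Psmg1 to Psmg4 help to build the alpha ring, and Psmd5, Psmd9 and Psmd10 help to build the base. Psme1 and Psme2 form an interferon-inducible activator that can replace the cap, Psme3 and Psme4 are nuclear activators, and Psmf1 binds the core and was named as an inhibitor. In plasma cells, proteins that fail to fold in the endoplasmic reticulum are pulled back into the cytosol for the proteasome, in dividing cells it removes cyclins at set times, and in antigen-presenting cells its peptides are loaded on class I molecules. The transcription factor Nfe2l1 is known to raise subunit genes together when proteasome activity is short.

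Promoter sequence was shown for 5 genes, picked by their ratios or by a motif. They do not include every extreme, since Psmd9, low in plasma cells, and Psmg4, lowest in neutrophils, are not shown. Psmb5 and Psmd8 had the highest ratios between plasma and B cells, Psmb6 is the other catalytic gene with a match to one motif, Psmc1 was among the highest between cycling and other T cells, and Psmf1 was lower in plasma cells. The 250 bases before the annotated start are given from 5′ to 3′ on the gene's strand, from RefSeq on GRCm38.p6, and lie outside the transcribed gene. Capitals mark CCAAT (the box bound by NF-Y), TGACNNNGC (the core of the antioxidant response element bound by Nfe2l1 and Nfe2l2) and CCGGAAG (a core bound by ETS factors), on either strand.
Psmb5, chr14:54617996-54618245, minus strand: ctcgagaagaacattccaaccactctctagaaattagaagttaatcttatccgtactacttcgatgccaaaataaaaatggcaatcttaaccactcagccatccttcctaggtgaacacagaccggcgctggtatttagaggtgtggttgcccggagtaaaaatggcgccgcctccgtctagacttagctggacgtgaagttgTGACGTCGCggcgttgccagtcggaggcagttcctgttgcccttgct
Psmb6, chr11:70525107-70525356, plus strand: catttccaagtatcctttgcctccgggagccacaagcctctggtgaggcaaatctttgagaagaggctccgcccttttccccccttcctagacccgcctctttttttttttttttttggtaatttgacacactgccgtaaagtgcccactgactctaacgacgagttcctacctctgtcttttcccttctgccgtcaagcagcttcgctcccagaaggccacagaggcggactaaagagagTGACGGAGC
Psmc1, chr12:100109952-100110201, plus strand: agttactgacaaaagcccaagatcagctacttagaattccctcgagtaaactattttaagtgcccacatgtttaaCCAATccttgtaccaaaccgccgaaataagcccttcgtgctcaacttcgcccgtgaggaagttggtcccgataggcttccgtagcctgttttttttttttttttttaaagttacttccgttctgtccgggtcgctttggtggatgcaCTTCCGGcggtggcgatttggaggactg
Psmd8, chr7:29180674-29180923, minus strand: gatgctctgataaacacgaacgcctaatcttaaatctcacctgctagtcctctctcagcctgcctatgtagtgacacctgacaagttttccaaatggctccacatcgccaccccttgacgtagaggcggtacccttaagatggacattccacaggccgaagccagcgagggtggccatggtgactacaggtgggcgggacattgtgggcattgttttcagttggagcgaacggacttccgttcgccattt
Psmf1, chr2:151741311-151741560, minus strand: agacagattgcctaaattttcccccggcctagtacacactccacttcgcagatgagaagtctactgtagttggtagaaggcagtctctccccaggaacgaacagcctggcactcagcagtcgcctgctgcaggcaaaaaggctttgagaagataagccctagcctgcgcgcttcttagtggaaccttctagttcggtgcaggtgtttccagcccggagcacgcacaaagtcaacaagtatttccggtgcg

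The RefSeq table held a promoter for 36 of the 43 genes, and those of Psmb1, Psmb2, Psmb7, Psmc3, Psmd3, Psmd7 and Psmg2 were not matched. CCAAT was found on either strand in 12 of the 36 (33.3%) and in 33.9% of all 32851 promoters in the table. TGACNNNGC was found in 5 of 36 (13.9%, against 10.2% of all promoters): Psmb5, Psmb6, Psmc6, Psmd9 and Psmd12. The core of the interferon-stimulated response element was found in 3 of 36 (8.33%, against 2.98%): Psmb3, Psmd4 and Psmd9. CCGGAAG was found in 11 of 36 (30.6%, against 6.91%), among them 3 of the ATPase genes (Psmc1, Psmc2 and Psmc6), the lid genes Psmd6, Psmd11 and Psmd12, and Psme3, Psme4 and Psmg1. All 4 motifs were chosen after expression values had been seen, the motifs can overlap, and the base composition of these promoters was not compared with that of the table. A match is a string of letters and not a binding site, and no match says only that the letters are not in this window.

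A cell was named by the list of 8 markers of which most were detected, with at least 3 markers and 2 more than any other list, and cells with at least 3 of 8 mitotic or replication markers formed cycling gates of their own. The libraries held 10427 and 10471 barcodes with 45009730 and 37983923 UMIs; 10016 and 10128 cells were kept, of which 13.1% and 8.74% took no name, and 23 barcodes were shared between the libraries. Throughout, CPM stands for UMIs per 1000000 UMIs of genes other than immunoglobulin genes, summed over the cells of a gate in a library. Stmn1, a gene of dividing cells that the cycling gate did not use, was at 1454 and 1703 CPM in cycling T cells and 40.5 and 49.2 in other T cells. Values are given for the CCl4 library first and the CCl4+IPA library second. A gene is called higher or lower where its ratio passed 1.5-fold, for cell types in both libraries in the same direction, among genes with at least 20 UMIs over the groups compared.

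The 43 genes together were lowest in neutrophils, at 1667 and 1635 CPM, and next lowest in basophils or mast cells, at 2363 and 2336. B cells followed at 2970.1 and 3114 CPM, then T cells at 3839 and 3965 and natural killer (NK) or ILC1 cells at 3985 and 3938, whose order turned between the libraries. Stromal cells were at 4967 and 3939 CPM, conventional dendritic cells at 4599.8 and 5219.8, monocytes and macrophages at 4709 and 5082, and plasmacytoid dendritic cells at 4788 and 4960.3. The order of these last 4 gates differed between the libraries, with stromal cells the highest of them in CCl4 and the lowest in CCl4+IPA. Plasma cells were at 6529.6 CPM (95% interval 6294 to 6771) and 5167 (4926 to 5417), cycling T cells at 6109 (5968 to 6253) and 6320.4 (6212 to 6429.8). Cycling plasma cells held the highest level of the gates with a lymphoid or myeloid name, 7849 and 7009.7 CPM, from only 19 and 9 cells. Hepatocytes read 9821 and 6464 CPM, but from 13 and 14 cells with 35740 and 77970 non-immunoglobulin UMIs, and were not ranked.

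The place of plasma cells rests on leaving immunoglobulin out of the denominator: over all UMIs they were at 4084 and 2642 UMIs per 1000000, below stromal cells, monocytes and macrophages and both dendritic cell gates in CCl4, and below B cells (3068) in CCl4+IPA. On the scale without immunoglobulin, among 11 gates, plasma cells had the highest level of 20 of the 43 genes in the CCl4 library and 9 in the CCl4+IPA library, and cycling T cells of 10 and 24; 7 genes were highest in plasma cells in both libraries and 8 in cycling T cells. Neutrophils had the lowest level of 28 and 27 genes, 20 of them the same in both libraries, and basophils or mast cells of 15 and 12. Exceptions had their own places: Psme1 was highest in conventional dendritic cells in both libraries (642 and 828 CPM), and Psma7 in monocytes and macrophages (572 and 724 CPM). The spread over single cells was read for the pairs compared further on. Cells with at least 1000 non-immunoglobulin UMIs were used, and shares are of those UMIs. The middle 50% of plasma cells had 0.413% to 0.718% of them from these genes in the CCl4 library, against 0.210% to 0.362% in B cells. In the CCl4+IPA library the ranges were 0.402% to 0.582% and 0.216% to 0.391%. Neutrophils covered 0.0872% to 0.220% and 0.0776% to 0.221%, and monocytes and macrophages 0.361% to 0.567% and 0.412% to 0.583%. On this scale without immunoglobulin, the middle ranges of these pairs did not overlap.

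Plasma cells, the antibody-secreting descendants of B cells, carried more proteasome mRNA per non-immunoglobulin UMI than B cells. The 47 and 48 plasma cells stood 2.20-fold (95% interval 2.12 to 2.28) and 1.66-fold (1.58 to 1.74) above the 3768 and 3255 B cells in summed level. This rests on the denominator: immunoglobulin genes took 37.5% and 48.9% of plasma cell UMIs, and over all UMIs the ratios were 1.40 and 0.861, higher in the CCl4 library and lower in the CCl4+IPA library. In both libraries 23 of the 43 genes were higher by the fold, where 17.7% of 10785 genes measured were, and 2 were lower, where 25.4% were; over all UMIs the counts were 2 higher and 5 lower. The median log2 ratio of the 43 genes was 1.00 and 0.67, and that of all genes measured was -0.23 and -0.21. Plasma cells were also deeper, with a median of 14996 and 14505.5 UMIs against 2791 and 2349 in B cells, and in cells of 5000 to 20000 UMIs the log2 ratio of the sum was 0.82 and 0.65.

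In the catalytic barrel all 7 beta ring genes were higher by the fold in both libraries. Psmb5 was at 229 and 185 CPM in plasma cells and 51.4 and 58.8 in B cells, a ratio of 4.46 (3.58 to 5.51) and 3.16 (2.38 to 4.12). Psmb6 was at 337 and 215 CPM against 86.3 and 97.0, a ratio of 3.91 and 2.22. Psmb7 was at 119 and 105 CPM against 48.3 and 53.2, a ratio of 2.46 and 1.97. Of the structural beta genes, Psmb2 had ratios of 3.66 and 2.52, Psmb4 2.90 and 2.35, Psmb3 2.21 and 1.67 and Psmb1 2.00 and 1.52. In the alpha ring 4 of 7 genes passed the fold in both libraries, Psma4 (3.48 and 2.19), Psma5 (3.20 and 2.01), Psma7 (3.03 and 2.19) and Psma2 (2.23 and 1.77). Psma1, Psma3 and Psma6 were higher by 1.62- to 1.90-fold in the CCl4 library and lay between 0.99 and 1.17 in the CCl4+IPA library.

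In the cap the lid stood out by Psmd8, a small lid subunit, at 407 and 377 CPM in plasma cells and 89.1 and 88.4 in B cells, a ratio of 4.56 (3.87 to 5.35) and 4.26 (3.50 to 5.16). It was the only gene of the lid above 4-fold, and its level was the highest of 11 gates in both libraries. Psmd6 (2.59 and 2.45), Psmd12 (2.45 and 2.18), Psmd13 (2.79 and 1.81), Psmd7 (2.67 and 1.82) and the deubiquitinase Psmd14 (1.82 and 1.61) made 6 of 8 lid genes higher, while Psmd11 (1.98 and 0.99) and Psmd3 (1.80 and 1.35) were not in both. Of the ATPase genes Psmc1 (2.82 and 1.62), Psmc4 (2.23 and 1.91) and Psmc3 (1.904 and 1.596) passed in both, 3 of 6, and of the base scaffold Psmd1 (2.35 and 1.97) alone of 3. Psmd4, a ubiquitin receptor of the base, was at 92.1 and 129 CPM in plasma cells and 88.8 and 95.4 in B cells, a ratio of 1.04 and 1.35.

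Among genes of assembly, none of the 7 chaperone genes was higher by the fold in both libraries, and Psmd9 was lower, at 17.97 and 5.98 CPM against 27.4 and 34.6, though these rest on 8 and 2 UMIs in plasma cells. The alpha ring chaperone Psmg4 was at 47.2 and 59.8 CPM in plasma cells and 55.9 and 62.7 in B cells. Of the activators, Psme4 was higher (2.65 and 2.76), as was Psme2 (1.70 and 2.24), while Psme1 had ratios of 0.99 and 0.81 and Psme3 1.12 and 0.75. Psmf1 was lower, with ratios of 0.48 (0.131 to 1.26) and 0.60 (0.192 to 1.42), whose intervals include 1, from 4 and 5 UMIs.

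Genes around the proteasome were read in the same comparison, where, as above, 17.7% of all genes measured were higher and 25.4% lower. Of the 10 genes of degradation from the endoplasmic reticulum, 9 were higher by the fold in both libraries, with a median log2 ratio of 2.70 in each. The 8 markers that defined the plasma gate include Derl3, a relative of Derl1 and Derl2, with Xbp1 and Txndc5. This result is therefore not independent of how the cells were picked. Edem1, which marks misfolded glycoproteins, was at 1341 and 2088 CPM in plasma cells and 35.6 and 48.9 in B cells, a ratio of 37.7 and 42.7. Edem2 had ratios of 24.5 and 24.5, the retrotranslocation scaffold Sel1l 13.5 and 13.1, and Herpud1 4.04 and 5.21. Of 12 ubiquitin and delivery genes, 2 were higher, Vcp, the ATPase that extracts substrates (3.98 and 3.57), and its cofactor Ufd1 (2.74 and 1.81), and Ubqln2 was lower, so the share higher was near that of all genes. Of 8 regulators of proteasome genes, Ngly1 (2.70 and 3.50) and Ddi2 (2.92 and 2.96), which process Nfe2l1, were higher, Nfe2l1 itself had ratios of 1.08 and 1.15, and Nfe2l2 (0.41 and 0.52) and Nfya (0.60 and 0.25) were lower, shares also near those of all genes. The proteasome-bound deubiquitinases Usp14 (0.19 and 0.27, from 3 and 4 UMIs) and Uchl5 (0.30 and 0.39, from 5 and 5 UMIs) were lower, and Sem1, a small lid protein, was higher (1.59 and 1.62). Pomp, which matures the beta ring, had ratios of 2.47 and 1.10. The 2 groups also differed in the share of UMIs from ribosomal protein genes, 11.4% and 7.39% in plasma cells against 22.5% and 21.1% in B cells, and a denominator without mitochondrial and ribosomal protein genes gave log2 ratios of the sum of 1.01 and 0.60.

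**Figure D1:**
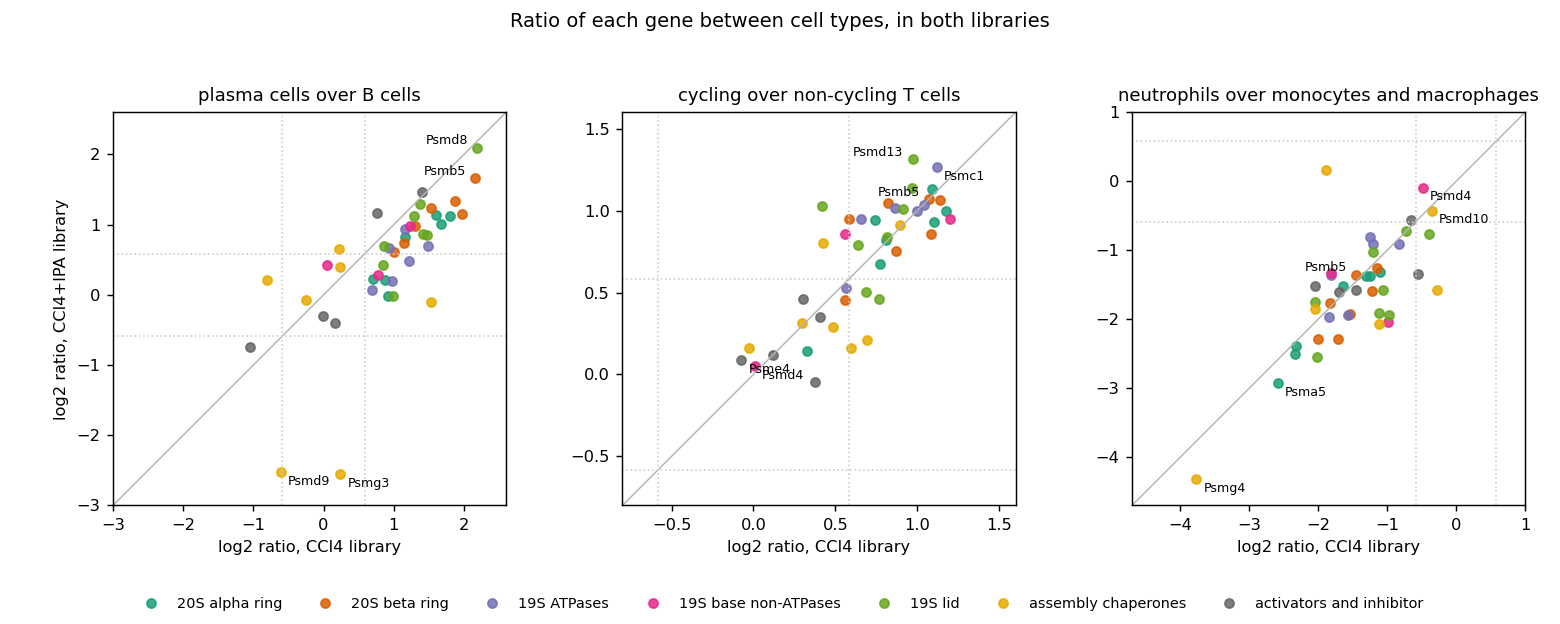
Log2 ratio of each gene between cell types in the CCl4 library (x axis) and the CCl4+IPA library (y axis), 1 point per gene, coloured by role; dotted lines mark 1.5-fold, the grey diagonal equal ratios, and axes differ between panels. Psmd8 and Psmb5 lead the plasma cell panel, 24 of 43 genes pass the fold in cycling T cells, and Psmg4 is the lowest of the neutrophil panel.

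Cycling T cells carried more proteasome mRNA than other T cells of the same library by nearly the same factor in both. The summed level was 1.59-fold higher (95% interval 1.55 to 1.63 and 1.56 to 1.63), from 106 and 202 cycling cells against 2332 and 2878 others. In both libraries 24 of 43 genes were higher by the fold, where 13.5% of 11307 genes measured were, and 0 were lower, where 13.9% were. The median log2 ratio of the 43 was 0.74 and 0.84, beside -0.02 and -0.07 over all genes measured. Cycling T cells were deeper (a median of 9671 and 8662.5 UMIs against 3936 and 3183), and within 5000 to 20000 UMIs the log2 ratio of the sum was 0.60 and 0.54.

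The core and the ATPases moved most evenly here. Alpha ring genes were higher by the fold in 6 of 7, beta ring genes in 6 of 7 and ATPases in 5 of 6. Psmc1 was at 71.5 and 94.5 CPM in cycling T cells and 32.9 and 39.3 in others, a ratio of 2.17 (1.68 to 2.77) and 2.40 (2.01 to 2.86). Psmb5 was at 146 and 166 CPM against 69.7 and 79.2, a ratio of 2.10 and 2.10. Psmb6 had ratios of 2.12 and 1.81 and Psmb7 1.77 and 2.06, so all 3 catalytic genes passed. Psma4 (2.13 and 2.19), Psma1 (2.26 and 2.00), Psma5 (2.15 and 1.91), Psmb2 (2.21 and 2.09), Psmc2 (2.06 and 2.05) and Psmc4 (2.00 and 1.99) lay close to them. The lid had 5 of 8, led by Psmd13 (1.96 and 2.49) and Psmd14 (1.95 and 2.20), and the base scaffold 1 of 3, Psmd1 (2.29 and 1.93). Genes under the fold within the rings were Psma3 (1.26 and 1.11), Psmb1 (1.47 and 1.37) and Psmc6 (1.48 and 1.44).

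Chaperones and activators stayed below the fold in cycling T cells apart from Psmg1 (1.86 and 1.88), 1 of 7 and 0 of 5. Psmd4 was at 112 and 120 CPM against 111 and 116, a ratio of 1.01 (0.832 to 1.21) and 1.03 (0.898 to 1.19). Psme1, the interferon-inducible activator, was at 492 and 481 CPM against 452 and 443, a ratio of 1.09 and 1.08. Psme4 had ratios of 0.95 and 1.06, where it had been among the higher genes of plasma cells. The deubiquitinase Uchl5, lower in plasma cells, was higher in cycling T cells (2.27 and 2.16), as were Pomp (1.71 and 1.87), the inducible catalytic gene Psmb9 (1.70 and 1.99) and Nfyb (1.73 and 2.09). None of the 10 genes of endoplasmic reticulum degradation or the 12 ubiquitin and delivery genes passed the fold in both libraries.

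Smaller cycling gates, added after values had been seen, gave a similar direction. Cycling NK or ILC1 cells, 11 and 25 of them, stood 1.51-fold (1.41 to 1.63) and 1.35-fold (1.27 to 1.44) above others of their kind, and 13 of 43 genes were higher by the fold in both libraries, where 11% of genes measured were; 0 were lower, where 11% were. Psmb6 (2.13 and 2.08), Psmb2 (1.94 and 2.01), Psma5 (2.45 and 1.79) and Psmc3 (1.69 and 2.38) were among these. Cycling plasma cells stood 1.20-fold (1.14 to 1.27) and 1.36-fold (1.25 to 1.47) above other plasma cells. There, 3 of 36 genes measured passed, Psmc3 (2.24 and 1.75), Psmc1 (1.54 and 1.77) and Psmd1 (1.52 and 1.54), where 11.3% of genes did; 0 were lower, where 7.74% were.

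Neutrophils, short-lived granulocytes, carried the least proteasome mRNA. Their summed level was 0.354 (95% interval 0.341 to 0.368) and 0.322 (0.308 to 0.336) of that in monocytes and macrophages, 2.82- and 3.11-fold lower. Of 42 genes measured, 35 were lower by the fold in both libraries and 0 were higher, where 40.7% and 17.5% of 7889 genes measured were. The median log2 ratio was -1.37 and -1.58, beside -0.44 and -0.52 over all genes, so much of the measured transcriptome was lower in neutrophils on this scale. The 8 neutrophil gate markers alone took 183811 and 170787 CPM. Ribosomal protein genes took 4.27% and 3.62% of neutrophil UMIs against 17.1% and 15.7% in monocytes and macrophages, and median UMIs were 2170.0 and 1696 against 5998 and 6126. Within cells of 1000 to 5000 UMIs the log2 ratio of the sum was -1.38 and -1.46.

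Every alpha ring, beta ring and ATPase gene was lower by the fold in both libraries, 7 of 7, 7 of 7 and 6 of 6. Psma5 was at 15.7 and 13.8 CPM in neutrophils and 94.5 and 105 in monocytes and macrophages, a ratio of 0.17 (0.113 to 0.239) and 0.13 (0.0844 to 0.200). Psma4 had ratios of 0.20 and 0.18, and Psma7 0.20 and 0.19. The catalytic genes followed, with Psmb5 at 46.7 and 49.4 CPM against 127 and 127 (ratios 0.37 and 0.39), Psmb6 at 33.1 and 28.02 against 133 and 137 (0.25 and 0.20) and Psmb7 at 37.4 and 34.2 against 86.8 and 104 (0.43 and 0.33). Within the ATPases the ratios ran from 0.255 for Psmc5 to 0.573 for Psmc1, both in the CCl4+IPA library. In the lid 7 of 8 were lower, with Psmd7 at 0.25 and 0.17.

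The lowest ratio of all was that of Psmg4, an alpha ring chaperone, at 6.37 and 4.75 CPM against 86.8 and 94.8, a ratio of 0.073 (0.0400 to 0.125) and 0.050 (0.0233 to 0.0961). With 15 and 10 UMIs in 911 and 1036 neutrophils it rests on few counts, and how much of it came from free RNA was not tested. Markers of B cells and T cells, which neutrophils should lack, stood in neutrophils at 1.57% and 1.32%, and at 2.42% and 1.96%, of their level in their own gates. The gate admits only cells with fewer markers of other lists, so these shares can run low by construction. Psmg2 was not measured there, with 17 UMIs over both gates in the CCl4+IPA library. Genes that escaped the fold in one library or both were Psmd4 (0.72 and 0.94), Psmd10 (0.78 and 0.74), Psmd13 (0.77 and 0.59), Psme3 (0.63 and 0.68), Psme4 (0.68 and 0.39), Psmd5 (0.83 and 0.33) and Psmg1 (0.27 and 1.12, from 6 and 16 UMIs). Psmd4 at 80.2 and 87.9 CPM in neutrophils stood against its 112 and 93.8 CPM in monocytes and macrophages.

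Partner genes were not uniform either. Pomp (0.21 and 0.19) and Usp14 (0.08 and 0.23) were lower with the core, while Sem1 was nearly level, 951 and 1168 CPM against 1064 and 1380 (0.89 and 0.85). Ngly1 (1.99 and 2.01) was higher in neutrophils, and Ddi2 was lower (0.30 and 0.21). Of the 12 ubiquitin and delivery genes 7 were lower, where 40.7% of all genes measured were, among them Rps27a, which encodes ubiquitin fused to a ribosomal protein (0.40 and 0.44), and Vcp (0.41 and 0.40).

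Neutrophils were divided, after their values had been seen, by the number of detected immature granulocyte markers. Neutrophils with none of those markers stood 1.02-fold (0.9504 to 1.10) and 1.25-fold (1.14 to 1.38) over those with 2 or more in summed level, while all genes measured had a median log2 ratio of 0.55 and 0.61. Il1b, high in mature neutrophils, was at 9739.8 and 11335 CPM in the first group and 1398 and 1875 in the second. Of 35 proteasome genes measured, 3 were higher by the fold in both libraries (Psmc3, Psmc5 and Psmd12), where 36.1% of genes were, and 2 were lower (Psmd1 and Psmd14), where 6.22% were. The sums were 1644 and 1709 CPM with no such marker and 1605 and 1367 with 2 or more. Median UMIs were 2102 and 1628 with no such marker and 4855.5 and 4214 with 2 or more. The sorting markers Ngp (15844 and 17543 CPM) and Camp (11921 and 14108 CPM) fill part of the second group's denominator and were at 0 in the first. The part of depth and of these markers was not tested.

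The inducible catalytic genes, left out of the 43 by their role, were set beside the constitutive gene each one replaces. Since UMI counts of different genes need not be captured alike, the share of the inducible gene in its pair is compared between cells only. Psmb8 made up 69.9% (64.7% to 74.7%) and 59.5% (51.3% to 67.3%) of Psmb8 and Psmb5 UMIs in plasma cells, against 83.4% and 78.3% in B cells. Psmb9 made up 43.6% and 41.9% of its pair with Psmb6 in plasma cells and 59.7% and 56.7% in B cells, so in both pairs the plasma cell interval lay below the B cell value in both libraries. A lower share is not a lower level of the inducible gene. In CPM, Psmb8 (532 and 272) and Psmb9 (261 and 156) in plasma cells stood above their levels in B cells in both libraries. For Psmb10 with Psmb7 the shares were 50.5% and 57.3% in plasma cells and 60.6% and 58.9% in B cells, with intervals that overlapped in both libraries.

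Neutrophils split between pairs. Psmb9 made up 75.8% and 84.7% of its pair in neutrophils, against 53.0% and 55.9% in monocytes and macrophages. The neutrophil ratio to those cells was 0.69 and 0.89 for Psmb9 itself. Psmb10 made up only 42.5% and 40.0%, against 63.1% and 63.9%. Psmb8 stood at 76.3% and 71.7%, against 71.5% and 71.4%, with overlapping intervals. Cycling T cells had a lower Psmb8 share than other T cells, 80.9% and 76.4% against 86.7% and 82.4%, and a lower Psmb10 share, 58.8% and 54.9% against 67.3% and 66.2%. In CPM cycling T cells stood above other T cells for both genes, at 619 and 537 for Psmb8 and 158 and 164 for Psmb10. Their Psmb9 share was 64.3% against 69.3% in the CCl4 library and 71.9% against 69.9% in the CCl4+IPA library, with intervals that overlapped in both.

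**Figure D2:**
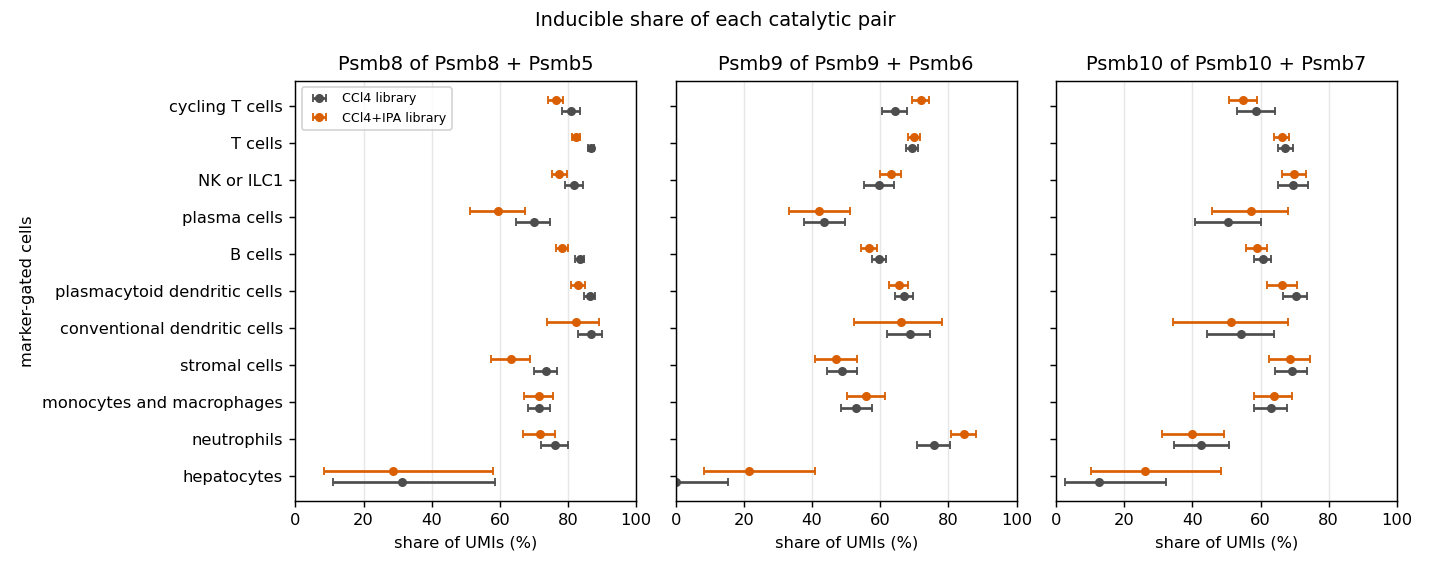
Share of UMIs (%) from the inducible gene in each catalytic pair, by marker gate, 1 point per library with its exact 95% Clopper-Pearson interval for counting error. Plasma cells sit below B cells for Psmb8 (69.9% and 59.5% against 83.4% and 78.3%), and neutrophils are high for Psmb9 and low for Psmb10; hepatocytes rest on 13 and 14 cells.

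Between the libraries the proteasome genes were nearly level over all kept cells. Their sum was 1.005 times as high (0.998 to 1.01) in CCl4+IPA as in CCl4, 3942 against 3922 CPM, and 0 of 43 genes passed the fold, where 14.1% of genes measured were higher and 4.23% lower. All genes together leaned to the CCl4+IPA library, with a median log2 ratio of 0.24, while the median of the 43 was 0.00. Over all kept cells, mitochondrial genes took 3.33% and 1.78% of UMIs and ribosomal protein genes 19.5% and 17.6%. Their part in this lean was not tested. The same lean held in B cells (0.28 for all genes and 0.06 for the 43) and T cells (0.27 and 0.06), and each of these gates had 0 proteasome genes past the fold, where 16.7% and 16.8% of genes were higher and 2.64% and 3.04% lower. NK or ILC1 cells (19.6% higher and 2.49% lower), plasmacytoid dendritic cells (16.4% and 3.58%) and cycling cells (15.6% and 11%) had 0 as well. The summed ratio was 1.05 in B cells, 1.03 in T cells, 0.988 in NK or ILC1 cells and in cycling cells, 0.981 in neutrophils, 1.04 in plasmacytoid dendritic cells and 1.08 (1.04 to 1.12) in monocytes and macrophages. Without mitochondrial and ribosomal protein genes in the denominator, the log2 ratio turned below 0 in B cells (-0.0026), T cells (-0.0091) and all kept cells (-0.056). The monocytes and macrophages had 1 gene past the fold, the lid gene Psmd3, at 27.6 and 44.5 CPM from 47 and 46 UMIs, where 17.8% of genes were higher; 0 were lower, where 7.03% were. Cycling T cells had a summed ratio of 1.03 and 1 gene higher, Psmd13 (1.601), where 19.7% of genes were, and 0 lower, where 3.59% were. The 55 and 14 conventional dendritic cells had a summed ratio of 1.13, with 8 of 37 genes measured higher, where 22.5% were, and 1 lower, where 12.6% were.

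In neutrophils 3 of 42 genes measured were lower in CCl4+IPA, where 5.65% of genes were, and 1 was higher, where 12.5% were. Psmd14 went from 23.4 to 11.4 CPM, a ratio of 0.488 (0.289 to 0.802), Psmd2 from 30.1 to 18.5 (0.615) and Psmd5 from 13.6 to 7.12 (0.524). Psmg1 was the higher one, on 6 and 16 UMIs. For the sum, the interval of the ratio ran from 0.936 to 1.03 and so includes 1. With each cell weighted alike 8 genes were lower and the log2 ratio of the sum was -0.21, and with at least 4 markers and a margin of 3 it turned to 0.075, with 0 genes higher.

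By the summed ratio, plasma cells and stromal cells differed most among the gates compared between the libraries. In plasma cells the sum was 0.791 (0.745 to 0.840) as high in CCl4+IPA, and 9 of 38 genes measured were lower by the fold, where 9.65% of genes were, while 1 was higher, where 27.9% were. The median log2 ratio of the 38 was -0.41, against 0.21 for all genes measured. Psmc2, an ATPase, was at 96.6 CPM in CCl4 and 47.9 in CCl4+IPA, a ratio of 0.496 (0.261 to 0.898). Psma4 went from 254 to 150 CPM (0.589), Psmb6 from 337 to 215 (0.639, 0.476 to 0.852), Psmb2 from 240 to 159 (0.660) and Psmb1 from 463 to 308 (0.666). Psma1, Psma5, Psmd11 and Psmc5 made up the rest, of which Psma5, Psmd11 and Psmc5 had intervals that include 1. Psme2 was higher, 171 and 260 CPM (1.52, 1.11 to 2.10). Pomp was lower too (0.434, 0.299 to 0.619), as was Psmb8 (0.511), while Herpud1 (2.05) and Edem1 (1.56) were higher.

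Other measures moved with the plasma cell gate between the libraries, and their part in the result was not tested. Immunoglobulin took 37.5% of its UMIs in CCl4 and 48.9% in CCl4+IPA, and over all UMIs the ratio of the sum was 0.647. Igha, the IgA heavy chain, made up 23.1% and 31.1% of immunoglobulin UMIs, Ighm 0.0788% and 0.970%, and Ighg2c 4.50% and 2.04%. The plasma markers of the gate itself summed to 64851 and 101258 CPM. At least 1 cycling marker was detected in 29 of 47 and 22 of 48 cells. The 5 cells with most proteasome UMIs gave 26.7% and 22.5% of the total, and without them the levels were 5739 and 4903 CPM. In cells of 5000 to 20000 UMIs the log2 ratio of the sum was -0.16, with 4 genes lower by the fold, against -0.34 and 9 over all depths. That band counts immunoglobulin UMIs, so it does not match depth on the scale of the ratio. Over all plasma cells the median of non-immunoglobulin UMIs was 9823 in CCl4 and 6984.5 in CCl4+IPA. The count was 24 lower and 0 higher over all UMIs, 14 lower without mitochondrial and ribosomal protein genes in the denominator, and 14 lower with at least 4 markers and a margin of 3.

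Stromal cells had a summed ratio of 0.793 (0.766 to 0.821), with 6 of 43 genes lower by the fold, where 10.8% of genes were, and 0 higher, where 19.7% were. The lid gene Psmd8 was at 156 and 65.4 CPM (0.421, 0.325 to 0.539) and Psmc2 at 78.4 and 35.8 (0.457, 0.320 to 0.643). Psma4, Psmd6, Psmd12 and Psmd10 were the others, of which Psmd10 had an interval (0.425 to 1.025) that includes 1. Median UMIs of the gate were 17209 and 12297, and ribosomal protein genes took 12.5% and 9.02% of its UMIs. The part of either was not tested. The stromal gate held a different mix in the libraries. As UMIs per 1000000 of all UMIs, Col1a1 was at 1278 and 188 and Col3a1 at 3142 and 446, while the mesothelial genes Upk3b (872 and 1092) and Msln (807 and 1099.9) were higher in CCl4+IPA. Composition and treatment cannot be told apart in this gate.

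**Figure D3:**
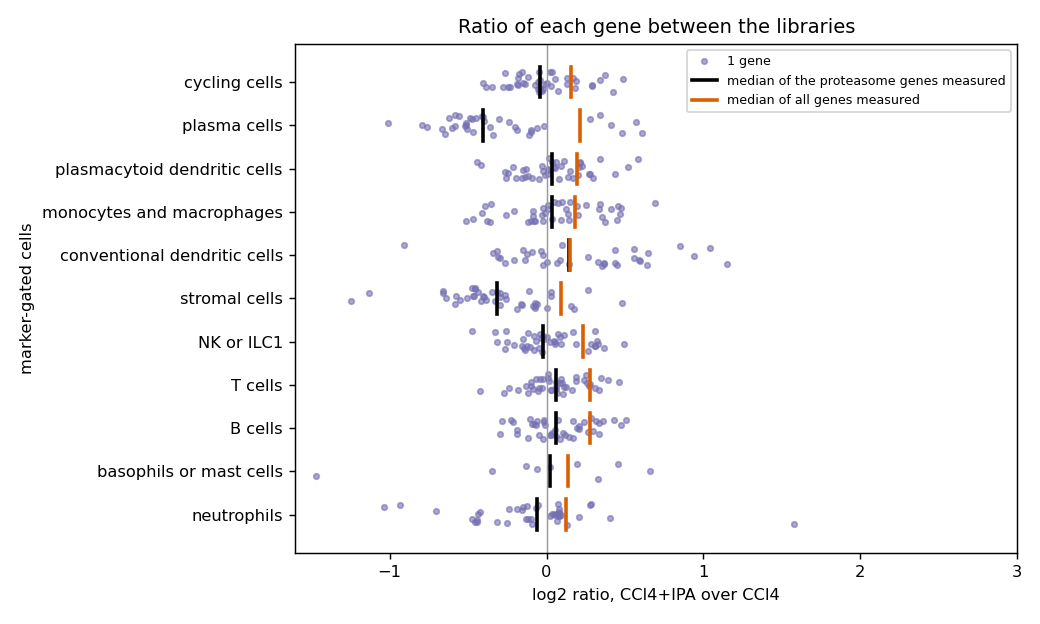
Log2 ratio of each measured constitutive proteasome gene between the libraries (CCl4+IPA over CCl4, x axis) by marker gate, 1 point per gene with points spread vertically for visibility; black bars are the median of these genes and orange bars the median of all genes measured. The black bar lies left of 0 in plasma cells (-0.41) and stromal cells (-0.32), and in B and T cells it is at 0.06 beside 0.28 and 0.27 for all genes.

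A few single genes, named after their values were seen, had the same direction in most gates. Psmc2 and Psmc5 were lower in CCl4+IPA in all 10 of the gates counted in which each was measured, with a median log2 ratio of -0.41 and -0.13. Cycling T cells were not among the gates counted. There Psmc2 was lower (0.740) but Psmc5 was at 97.9 CPM in CCl4+IPA against 82.7, a ratio of 1.18 (0.924 to 1.53). Psma4 and Psmb1 were lower in 10 of 11 gates, Psmb1 with a median of -0.19. The inducible Psmb8 was lower in 11 of 11 gates (median -0.29). Other genes were split, such as Psma5 and Psmg4, each lower in 5 of 10 gates, and Psma1, lower in 5 of 11. Gates of a library share its preparation and its free RNA, so these counts describe the 2 libraries and are not repeats of a treatment.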

How the data were processed

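The 2 libraries are 10x Genomics 3′ single-cell RNA libraries, and the deposited UMI count matrices, 1 per library, hold whole-number counts per gene and cell which, per the file headers, the authors obtained from Cell Ranger 7.1.0; the submitters' processing notes name the build mm9. Barcodes needed 500 UMIs, 300 detected genes and a mitochondrial share below 20%, and Scrublet calls (scanpy 1.11.5, seed 1; 2.70% and 3.16% of cells) were removed. Cells were named by 13 lists of 8 markers; no clustering was used, and names mean marker gates. Counts were summed per gate and library and divided by the UMIs outside 393 immunoglobulin genes. Ratios carry exact conditional binomial intervals, levels exact Poisson intervals and shares Clopper-Pearson intervals, at 95%; they cover counting error only. A gene at 0 was set to a floor of 3 UMIs for a ratio. The ratios and their intervals were tested on counts simulated per gate with counting error only. That test covers neither the summing over cells nor the spread between cells. Named with values are Psmb5, Psmb6 and Psmb7 and, per comparison, genes past the fold in both libraries or else the 5 highest and 5 lowest ratios; genes named near 1 or under the fold, and pathway genes named singly, were chosen after their values were seen. The members and lists were chosen with earlier results of these data known. Alternatives were the doublet, cell, marker and UMI filters, 3 other denominators or weightings, and, added after the data were seen, cells within a band of total UMIs. The split of neutrophils, the small cycling gates and the motifs were added then too. Some genes of the pathway lists are not reported here by name.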

Additional observations from a re-analysis of the deposited data

Results flagged for a closer look

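The library ratio of the summed proteasome genes went in opposite directions in different cell types. It was below 1 in plasma cells (0.791) and stromal cells (0.793), with every interval bound below 1. It was above 1 in B cells (1.05), T cells (1.03), cycling T cells (1.03), monocytes and macrophages (1.08), plasmacytoid dendritic cells (1.04) and conventional dendritic cells (1.13). The direction turned in B cells (log2 ratio -0.0026) and T cells (-0.0091) with a denominator without mitochondrial and ribosomal protein genes, while plasma cells (-0.42) and monocytes and macrophages (0.060) kept theirs. Stromal cells, cycling T cells and the dendritic cell gates were not read with that denominator. With 1 library per group, the difference between these cell types was not tested.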

How the results depend on the processing

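Values are log2 ratios of the summed genes, or counts of genes past the fold. The reported values were 1.14 and 0.73 for plasma over B cells, 0.67 in each library for cycling over other T cells, and -1.50 and -1.64 for neutrophils over monocytes and macrophages. With all UMIs as denominator, plasma over B cells gave 0.48 and, turned in direction, -0.22, with 2 genes higher and 5 lower, and the library ratio in plasma cells gave -0.63, with 0 higher and 24 lower. Without mitochondrial and ribosomal protein genes in the denominator, plasma over B cells gave 1.01 and 0.60, cycling T cells 0.57 and 0.56, and neutrophils -1.73 and -1.84. The same denominator gave library ratios of -0.079 in cycling cells, -0.056 in all kept cells, -0.0026 in B cells and -0.0091 in T cells, the last 3 turned in direction, and 0 genes higher and 14 lower in plasma cells. With each cell weighted alike, plasma over B cells gave 1.06 in CCl4, cycling T cells 0.63 in CCl4+IPA and neutrophils -1.27 in CCl4. Library comparisons then gave -0.0055, turned in direction, in all kept cells, -0.21 with 8 genes lower in neutrophils, 3 higher in plasma cells, 1 higher in B cells, and 3 higher and 2 lower in monocytes and macrophages. With at least 4 markers and a margin of 3, neutrophils gave -1.64 in CCl4, and library comparisons gave 14 lower in plasma cells, 0.075, turned in direction, with 0 higher in neutrophils, and 2 higher and 3 lower in monocytes and macrophages. Plasma over B cells had 1 gene lower with Scrublet calls kept and 1 with at least 200 genes as the only filter, and the library comparison in neutrophils had 0 higher with a minimum of 50 UMIs.

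In cells of 5000 to 20000 UMIs, chosen after the data were seen, plasma over B cells gave 0.82 and 0.65 with 1 gene lower, cycling T cells 0.60 and 0.54, and the library ratio -0.16 with 4 lower in plasma cells and 0.062, turned in direction, in cycling cells. In cells of 1000 to 5000 UMIs, neutrophils gave -1.38 and -1.46 with 1 gene higher. For the differences not set by a denominator's own construction or by fewer cells or genes, the cause was not tested. The mitochondrial limit of 10% and the removal of immature neutrophils moved no value beyond its counting interval. No paired analysis was possible because each group has 1 library. Depth limits genes with few UMIs in the 47 and 48 plasma cells, such as Psmd9 and Psmf1.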
